A study of Mus musculus with 8 samples.

Results

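The tumour suppressor p53, encoded by *Trp53*, and 7 of its direct target genes (*Cdkn1a*, *Mdm2*, *Ccng1*, *Trp53inp1*, *Zmat3*, *Phlda3* and *Aen*) were followed in mouse B cell progenitors with and without the RNA helicase UPF1. The 8 genes were chosen by name, with earlier results of these data known, and they are 8 of the 27179 genes in the count table. All 8 passed the expression filter and were among the 17700 genes tested. A wider list of 44 further p53 regulators and targets was read beside them. The question was whether a rise of *Cdkn1a* in cells that lack UPF1 came alone or with the other targets of p53.

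RNA of early LPre-B cells (early large pre-B) and sPre-B cells (small pre-B), sorted from the bone marrow of adult, age-matched mice, was sequenced after removal of ribosomal RNA. Every mouse was *Upf1* Flox/Flox and *Igh* B1-8hi/+, the latter a rearranged heavy chain gene knocked into 1 copy of its locus, and cKO mice were *Mb1* Cre/+ where Ctrl mice were *Mb1* +/+. Each stage and genotype was represented by 2 libraries, which gave 4 groups and 8 libraries. *Mb1* is *Cd79a*, so Cre is made in cells of the B lineage from 1 disrupted copy of that gene. The labels do not say which libraries share an animal, and *P* values therefore measure the spread between these libraries.

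p53 is a transcription factor that is made and destroyed continually. MDM2, itself the product of a p53 target, marks p53 for degradation, and DNA damage, oncogene activity or failing ribosome assembly stabilize p53 without a need for more *Trp53* mRNA. Stable p53 binds paired decamers near its target genes and raises the transcription of growth arrest, repair and death genes. In pre-B cells p53 is known for guarding the passage between proliferation and the DNA breaks of V(D)J recombination. UPF1 is the central helicase of nonsense-mediated decay, by which mRNAs with an early stop are removed.

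The sequences before the transcription starts of 2 members are shown because they carry the closest matches to the p53 response element. RefSeq windows (GRCm38.p6, 250 bases before to 50 after a start) were held for 6 of the 8 members, namely *Trp53*, *Cdkn1a*, *Mdm2*, *Ccng1*, *Phlda3* and *Aen*. They were compared with the p53 response element consensus, 2 decamers end to end with the core CNNG in each, which reads the same on both strands. The 4 core letters were required and the matches counted over 20 letters. The 250 bases before the start are given 5′ to 3′ in the direction of the gene, with the best match in capitals, for *Cdkn1a* (chr17:29090729-29090978, plus strand) and *Ccng1* (chr11:40755287-40755536, minus strand).
Cdkn1a: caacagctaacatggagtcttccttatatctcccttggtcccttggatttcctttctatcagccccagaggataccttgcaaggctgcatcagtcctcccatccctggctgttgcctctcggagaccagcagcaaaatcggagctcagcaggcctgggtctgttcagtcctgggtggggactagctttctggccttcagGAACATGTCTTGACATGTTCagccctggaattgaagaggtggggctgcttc
Ccng1: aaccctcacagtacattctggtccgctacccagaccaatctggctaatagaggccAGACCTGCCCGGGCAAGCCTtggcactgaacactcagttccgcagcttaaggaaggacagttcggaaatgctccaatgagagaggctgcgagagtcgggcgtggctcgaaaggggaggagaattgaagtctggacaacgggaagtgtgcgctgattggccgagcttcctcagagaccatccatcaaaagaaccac

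The *Cdkn1a* match lay at chr17:29090928-29090947, from base −51 to −32 before the start used above, and the *Ccng1* match at chr11:40755462-40755481, from base −195 to −176. Each met 19 of 20 letters, as did 22 of the 32851 mouse windows scanned (0.067%). A window of *Gtse1* from the wider list was among them. *Cdkn1a* has another RefSeq window at a later start (chr17:29093519-29093818). The best match there had 13 letters, which 39.5% of windows reached. A match of 17 letters was found for *Aen* at chr7:78895937-78895956 and for *Trp53* at chr11:69580284-69580303, both on the plus strand, and 1.38% of all windows held a match of at least 17. These sites are shown with the core letters of both decamers in capitals.
Aen: gggCTTGtccgggCAAGgag
Trp53: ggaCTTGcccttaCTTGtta

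The best matches of *Phlda3* and *Mdm2* had 15 and 11 letters, which 12.4% and 61.3% of windows reached. Each gene was counted by its best window. Thus 4 of the 6 members with a window held a match of at least 17 letters, compared with 6 of 33 genes of the wider list and 1.63% of all 27025 genes with a window. A match describes letters within these windows only, and p53 sites further away were not searched.

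The totals lay between 68516857 and 160426338 counts per library, so that 3 counts, taken as the smallest level that could be shown, corresponded to 0.0187 to 0.0438 CPM (counts scaled to library size after TMM normalization). These limits cover counting error only. The small pre-B surface gene *Cd2* was at 4.95 to 6.18 CPM in early LPre-B cells and at 135 to 178 CPM in sPre-B cells, and *Pax5* and *Ebf1* were at no less than 268.5 CPM in any of the 8 libraries. The gene-level count of *Upf1* did not check the deletion, which removes part of the gene: both cKO libraries were above both Ctrl libraries at each stage, with a Log2FC of 0.16 in early LPre-B cells (adjusted *P* = 0.251) and of 0.59 in sPre-B cells, where the rise was called (adjusted *P* = 0.00245). *Cd79a*, the gene that carries Cre, was read as a check of the genotype labels and not of the deletion itself. At each stage both cKO libraries were below both Ctrl libraries (188 and 160.0 CPM against 640.5 and 543 in early LPre-B, 405 and 325 against 1478 and 1602 in sPre-B). The fall was 3.40-fold in early LPre-B and 4.22-fold in sPre-B cells, and the part of the disrupted copy in it was not tested. The decay target *Gas5* stood at 762 and 727 CPM in cKO early LPre-B cells and at 108 and 112 in Ctrl, and in sPre-B cells at 294 and 297 CPM in cKO and 68.5 and 84.5 in Ctrl. *Gadd45b*, another decay target, was higher in cKO early LPre-B cells (Log2FC 1.58) and was not called in sPre-B cells (−0.33, adjusted *P* = 0.0529). By *Xist* and Y-linked counts both Ctrl replicate 2 libraries were from males and the other 6 from females. Calls of members, of the wider p53 list and of named markers in cKO over Ctrl that were lost without those 2 libraries are given with the value that they then had.

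Per kilobase of exon, *Trp53* and *Trp53inp1* were the most abundant of the 8 mRNAs in Ctrl cells of both stages. In Ctrl early LPre-B cells the mean levels were 73.7 RPKM for *Trp53*, 63.4 for *Trp53inp1*, 31.5 for *Mdm2*, 18.5 for *Ccng1*, 17.3 for *Cdkn1a*, 4.35 for *Aen*, 1.44 for *Phlda3* and 0.473 for *Zmat3*. *Ccng1* and *Cdkn1a* did not differ beyond their spread in that order. In Ctrl sPre-B cells *Trp53inp1* led with 198 RPKM and *Cdkn1a* was at 1.48 RPKM, close to *Zmat3* at 1.44 RPKM, and *Phlda3* was lowest at 0.381 RPKM. In cKO early LPre-B cells *Trp53inp1*, at 20.3 and 29.1 RPKM, overlapped with *Mdm2* at 21.6 and 25.5 RPKM. These values rest on exon lengths from an annotation of the same build and were compared within a group only.

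**Figure D1:**
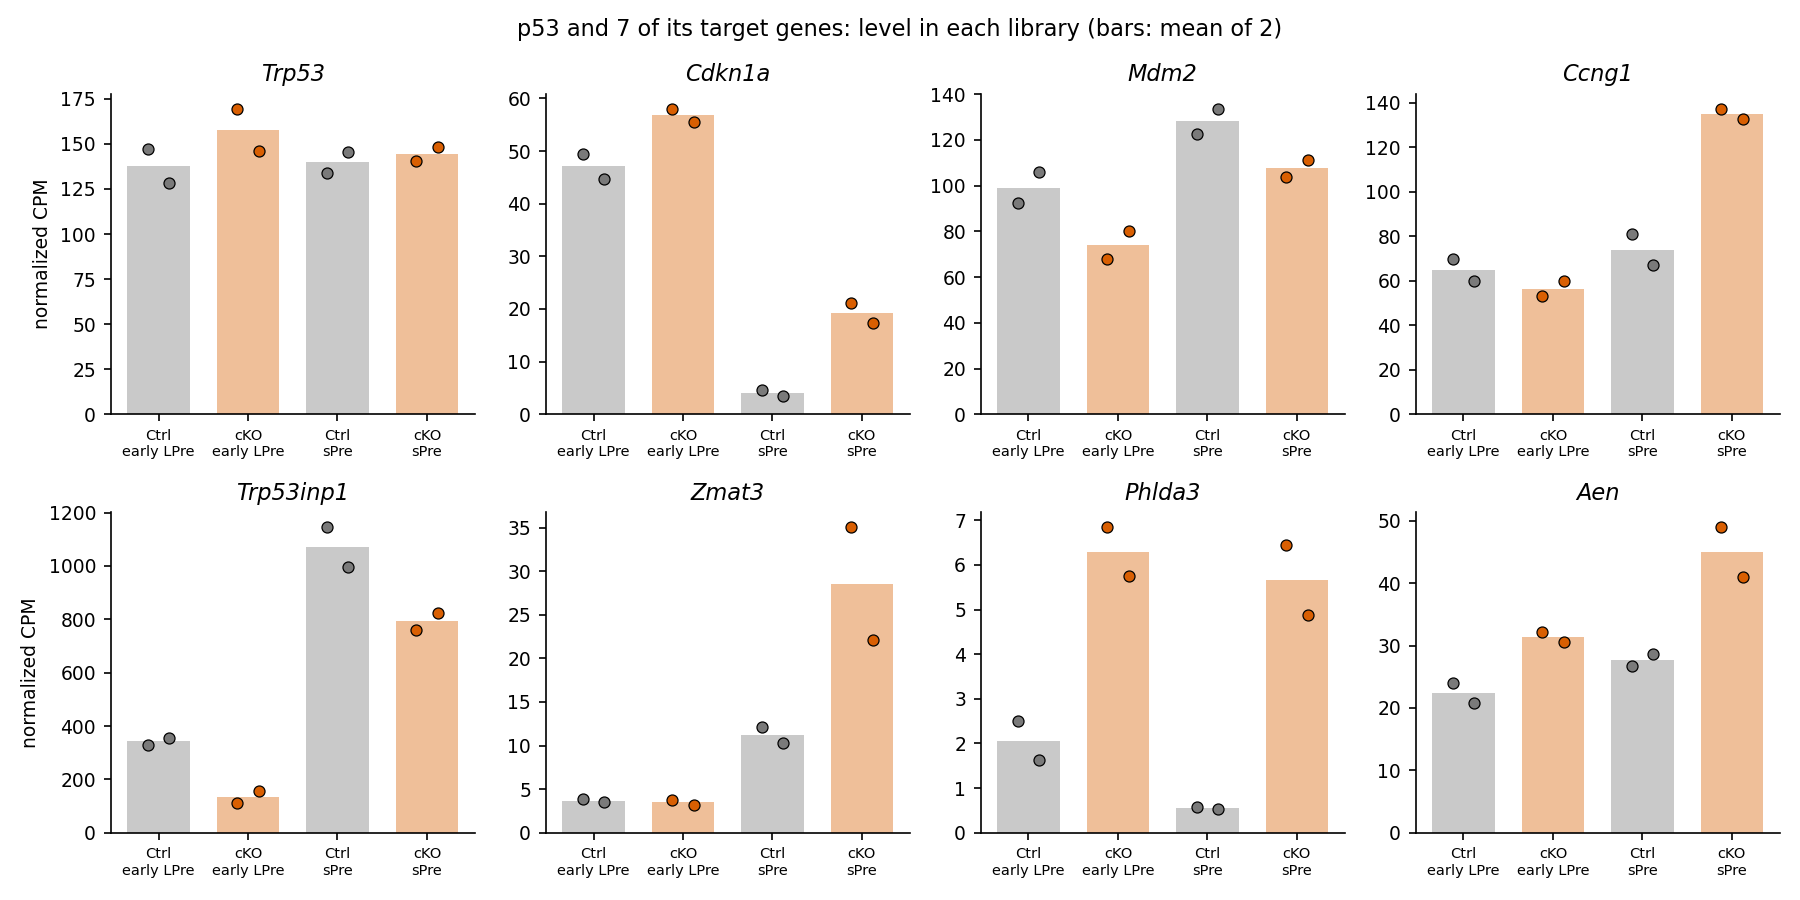
Normalized CPM (y axis, from 0 and on its own scale in each panel) of *Trp53* and 7 p53 target genes in the 8 libraries. Points are single libraries and bars the means of 2, grey for Ctrl and orange for cKO. *Trp53* was between 128 and 169 CPM throughout, while *Cdkn1a* was between 3.50 and 58.0 CPM.

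The *Trp53* mRNA itself was level. In early LPre-B cells it was at 147 and 128 CPM in Ctrl and at 169 and 146 CPM in cKO, and in sPre-B cells at 134 and 145 CPM in Ctrl and at 140.2 and 148 CPM in cKO. The ranges of the groups overlapped in each of the 4 comparisons. Its Log2FC in cKO over Ctrl was 0.19 (95% interval −0.06 to 0.45, adjusted *P* = 0.216) in early LPre-B cells and 0.05 (−0.21 to 0.30, adjusted *P* = 0.786) in sPre-B cells, and between the stages it was 0.02 (−0.23 to 0.27) in Ctrl and −0.13 (−0.38 to 0.12) in cKO. A processed pseudogene, *Trp53-ps*, resembles this mRNA, and reads shared with it cannot be told apart in these counts. The RNA level does not measure the p53 protein, which was not analysed here.

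In early LPre-B cells of cKO mice the p53 targets changed in both directions. *Phlda3* and *Aen* rose, *Trp53inp1* and *Mdm2* fell, and *Cdkn1a*, *Ccng1*, *Zmat3* and *Trp53* did not pass the test. Thus 4 of 8 members were called at an adjusted *P* under 0.05, beside 31.3% of all genes tested, with 2 higher (14.5% of all genes) and 2 lower (16.9% of all genes). The median Log2FC of the members was 0.05, beside −0.06 over all genes.

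*Phlda3*, whose product keeps the kinase AKT from the membrane, was in early LPre-B cells at 2.50 and 1.63 CPM in Ctrl and at 6.84 and 5.75 CPM in cKO. Both cKO libraries were above both Ctrl libraries, with a Log2FC of 1.60 ± 0.25 (SE, n = 2 per group, adjusted *P* = 0.00212), or 3.04-fold. *Aen*, which encodes a nuclease that acts in apoptosis, was at 24.0 and 20.7 CPM in Ctrl and 32.2 and 30.6 CPM in cKO. The groups did not overlap and the rise was small, at 1.40-fold (Log2FC 0.49 ± 0.12, adjusted *P* = 0.0162). This call was lost without Ctrl early LPre replicate 2 (adjusted *P* = 0.0544), cKO early LPre replicate 1 (0.0991) or cKO early LPre replicate 2 (0.0563), and without both Ctrl replicate 2 libraries (0.0644).

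*Trp53inp1*, a stress-induced partner of p53 that also acts in autophagy, was at 329 and 356 CPM in Ctrl and at 109.9 and 157 CPM in cKO early LPre-B cells. It was the member with the largest fall, 2.57-fold (Log2FC −1.36 ± 0.18, adjusted *P* = 0.000871), and every library left out in turn kept that call. *Mdm2*, the ubiquitin ligase of p53, was at 92.2 and 106 CPM in Ctrl and at 67.9 and 80.3 CPM in cKO. The cKO libraries were below the Ctrl libraries, with a Log2FC of −0.42 ± 0.11 (adjusted *P* = 0.0216). That call did not hold without Ctrl early LPre replicate 2 (adjusted *P* = 0.152), without cKO early LPre replicate 1 (0.156), without both Ctrl replicate 2 libraries (0.153), or in a fit of the 4 early LPre libraries alone (0.0674).

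*Cdkn1a*, which encodes the cyclin-dependent kinase inhibitor p21, was at 49.4 and 44.7 CPM in Ctrl and at 58.0 and 55.5 CPM in cKO early LPre-B cells. The cKO libraries lay just above the Ctrl libraries, and the Log2FC of 0.27 (95% interval −0.05 to 0.59) had an adjusted *P* of 0.184. In that fit of the 4 early LPre libraries alone it reached 0.0352. *Ccng1*, encoding cyclin G1, was at 69.7 and 60.1 CPM in Ctrl and 53.2 and 59.8 in cKO (Log2FC −0.20, −0.47 to 0.07, adjusted *P* = 0.236). *Zmat3*, a zinc finger RNA-binding protein, was low and alike, at 3.84 and 3.54 CPM in Ctrl and 3.81 and 3.13 in cKO (Log2FC −0.09, −0.60 to 0.42).

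In the same early LPre-B comparison, 3 of 7 large pre-B markers and 5 of 6 small pre-B markers were lower in cKO and none was higher. Over all genes 14.5% were called higher and 16.9% lower. The summed level of the first list was 5972 to 6358 CPM in Ctrl and 3843 to 4095 in cKO, that of the second 1470.3 to 1472 in Ctrl and 675 to 801 in cKO. Most of the sum of the first list was *Mki67*, at 4460 and 4927 CPM in Ctrl and 2906 and 3071 in cKO. *Mki67* was not called (adjusted *P* = 0.116). No marker of either list was at 0. Of 8 myeloid markers 2 fell, *Itgam* (Log2FC −1.36, adjusted *P* = 0.000331) and *Lyz2* (−1.39, adjusted *P* = 0.0158), with sums of 115 to 140 CPM in Ctrl and 54.4 to 59.4 in cKO. Most of these sums was *Itgam* alone, at 87.1 and 97.4 CPM in Ctrl and 30.4 and 41.2 in cKO. Of 6 T and NK cell markers tested 1 fell, *Klrb1c* (−2.29), with sums of 4.63 to 5.40 CPM in Ctrl and 2.06 to 2.60 in cKO. Of 6 erythroid and megakaryocyte markers 1 fell, the globin gene *Hbb-bs* (−1.61), and their sums overlapped, at 12.4 to 13.2 CPM in Ctrl and 3.89 to 16.2 in cKO. Of 5 mature B and plasma markers 1 fell, *Sdc1* (−0.88, adjusted *P* = 0.0214), with sums of 84.7 to 97.2 CPM in Ctrl and 53.4 to 59.1 in cKO. Most of these sums was *Sdc1* alone, at 85.9 and 73.0 CPM in Ctrl and 40.5 and 45.8 in cKO. None of these lists had a marker called higher. *Ebf1* (−0.45) and *Ptprc* (−0.52) of the B lineage fell as well. Without both Ctrl replicate 2 libraries the calls of *Lyz2* (adjusted *P* = 0.149), *Hbb-bs* (0.0598), *Ebf1* (0.135), *Ptprc* (0.0604) and the small pre-B marker *Irf4* (0.0916) were lost. In bulk RNA, fewer cells of a type and less RNA per cell cannot be told apart, and the part of these shifts in the p53 targets was not tested.

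**Figure D2:**
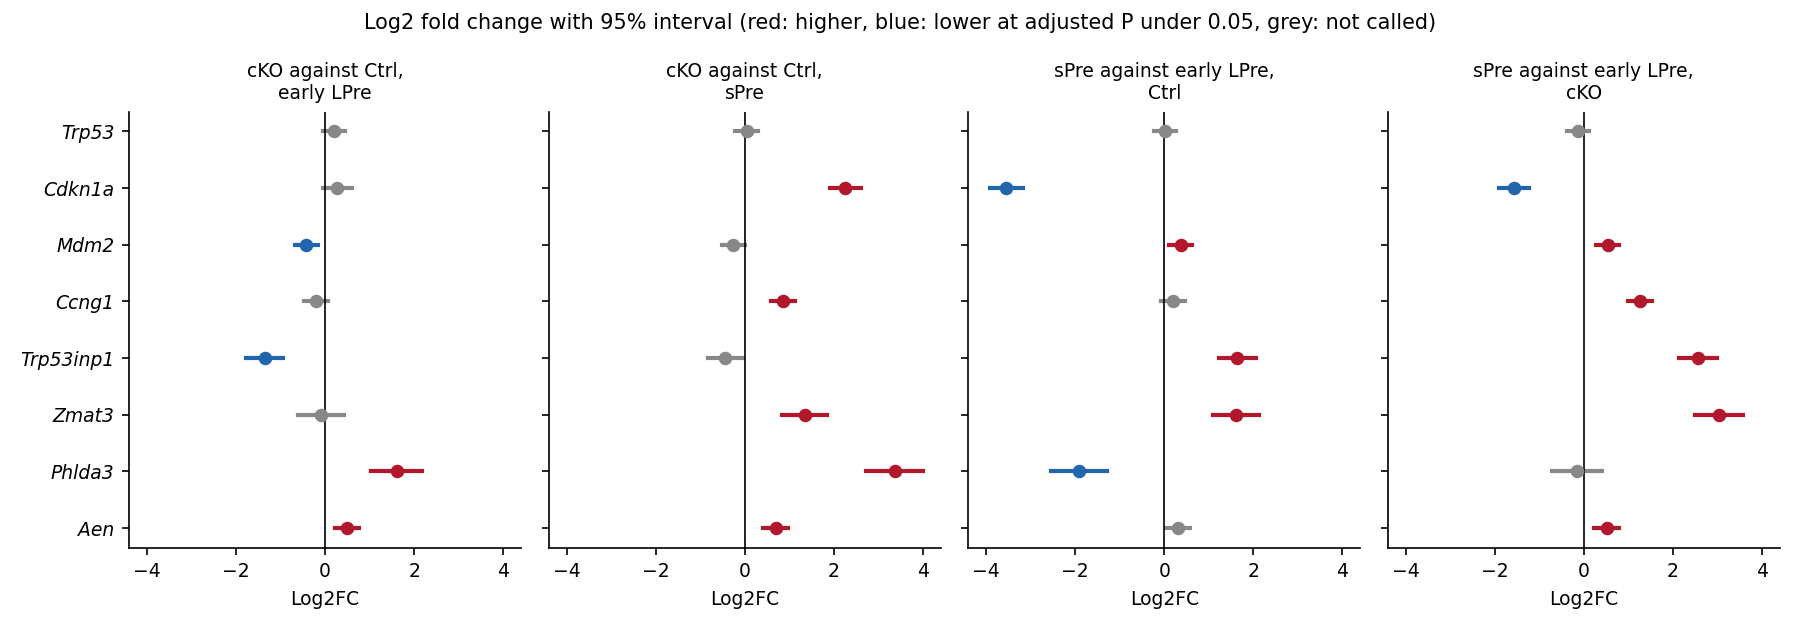
Log2FC (x axis) of *Trp53* and 7 p53 targets in 4 comparisons, with 95% intervals from the edgeR fit as bars. Points are red where higher, blue where lower and grey where not called at an adjusted *P* under 0.05. In sPre-B cells *Cdkn1a*, *Ccng1*, *Zmat3*, *Phlda3* and *Aen* lie to the right of 0, and in early LPre-B cells only *Phlda3* and *Aen* do so among the called genes.

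In sPre-B cells, 5 members rose in cKO, none fell, and *Cdkn1a* was 1 of the 5. *Phlda3*, *Cdkn1a*, *Zmat3*, *Ccng1* and *Aen* were higher, from 1.62-fold to 10.3-fold, and *Trp53*, *Mdm2* and *Trp53inp1* did not pass the test. The 5 of 8 called compare with 34.7% of all genes called, and with 19.8% called higher. The median Log2FC of the members was 0.78, beside 0.01 over all genes.

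*Cdkn1a* was at 4.54 and 3.50 CPM in Ctrl sPre-B cells and at 21.1 and 17.4 CPM in cKO. The groups were far apart, with a Log2FC of 2.26 ± 0.15 (n = 2 per group, adjusted *P* = 4.07e-05) or 4.78-fold. Without each library in turn the Log2FC was between 2.05 and 2.42. An unnamed transcript on the opposite strand shares 10% of the exon bases of *Cdkn1a*, and whether reads there were assigned by strand is not given in the sources used here. *Ccng1*, the other member with a match of 19 letters, was at 81.05 and 67.0 CPM in Ctrl and at 137 and 133 CPM in cKO. Its libraries did not overlap and its Log2FC was 0.87 ± 0.12 (adjusted *P* = 0.000932), or 1.83-fold. *Gtse1* of the wider list, which also had 19 letters, was not called at either stage. Its Log2FC in cKO over Ctrl was −0.39 in early LPre-B cells (adjusted *P* = 0.193) and 0.53 in sPre-B cells (0.0913).

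*Phlda3* had the largest change of the 8 genes in cKO over Ctrl. It was at 0.567 and 0.525 CPM in Ctrl sPre-B cells, from 48 and 37 counts, and at 6.45 and 4.88 CPM in cKO, a rise of 10.3-fold (Log2FC 3.37 ± 0.28, adjusted *P* = 8.68e-05). *Zmat3* was at 12.2 and 10.3 CPM in Ctrl and at 35.0 and 22.0 CPM in cKO. The cKO libraries of *Zmat3* differed from each other by a larger ratio than those of any other member, yet both were above Ctrl, with a Log2FC of 1.34 ± 0.22 (2.54-fold, adjusted *P* = 0.00213). *Aen* was at 26.8 and 28.6 CPM in Ctrl and at 48.9 and 41.0 CPM in cKO, with a Log2FC of 0.70 ± 0.12 (1.62-fold, adjusted *P* = 0.00293).

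The 2 remaining targets pointed the other way without passing edgeR's quasi-likelihood test in the fit with 1 mean per group. *Mdm2* was at 123 and 134 CPM in Ctrl and at 104 and 111 CPM in cKO sPre-B cells (Log2FC −0.25, 95% interval −0.51 to 0.0011, adjusted *P* = 0.113), and it was called lower once the replicate number was added to the fit (0.0366). Both cKO libraries were below both Ctrl libraries, as was also the case for *Trp53inp1*, at 1145 and 996 CPM in Ctrl and 759 and 825 CPM in cKO. The Log2FC of *Trp53inp1* was −0.43 (−0.83 to −0.03, adjusted *P* = 0.0877), and it was called lower by DESeq2 (adjusted *P* = 0.0165), in the fit of the 4 sPre libraries alone (0.0356) and without cKO early LPre replicate 1 (0.047) or 2 (0.0464). Neither gene was higher in cKO at either stage.

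Markers of other stages and cell types were read in the same comparison, in which 19.8% of all genes were called higher and 14.9% lower. In cKO sPre-B cells the mature B cell genes *Fcer2a* (83.8 and 29.9 CPM against 6.03 and 5.33 in Ctrl) and *Cr2* (25.9 and 18.0 against 9.58 and 9.33) were higher. Of the same 5 mature B and plasma markers *Sdc1* was lower (Log2FC −0.96, adjusted *P* = 0.0138). *Prdm1* (−0.56) and *Jchain* (−2.48) pointed down without being called. None of the 5 was at 0, and their summed level was 84.5 to 124 CPM in Ctrl and 107 to 145 in cKO. Of 7 large pre-B markers 2 were higher (*Igll1* and *Vpreb1*) and 1 was lower (*Dntt*), with sums of 1059 to 1354 CPM in Ctrl and 1394 to 1779 in cKO. Most of these sums came from *Il7r* and *Mki67*, neither of which was called (adjusted *P* = 0.141 and 0.322). *Il7r* was at 558 and 635 CPM in Ctrl and at 663 and 943 in cKO. Of 6 small pre-B markers 2 were lower, with sums of 5661 to 6198 and 3779.6 to 4073 CPM in Ctrl and cKO. The T and NK cell markers summed to at most 2.39 CPM in any sPre library. Of 8 myeloid markers 1 fell, *Itgam* (Log2FC −0.46, adjusted *P* = 0.0351), with sums of 311 to 363 CPM in Ctrl and 218 to 250 in cKO and no marker at 0. Most of these sums was *Itgam* alone, at 228 and 262 CPM in Ctrl and 179 and 176 in cKO. Of 6 erythroid and megakaryocyte markers 1 fell, *Hbb-bs* (Log2FC −1.51, adjusted *P* = 0.00838), and their sums overlapped, at 22.5 to 31.6 CPM in Ctrl and 13.6 to 27.9 in cKO. *Ebf1* of the B lineage fell as well (−0.80). Without both Ctrl replicate 2 libraries the calls of *Itgam* (adjusted *P* = 0.119) and *Hbb-bs* (0.0755) were lost. The proliferation gene *Mki67* was at 717 and 360 CPM in Ctrl sPre-B cells and at 661 and 749 in cKO, groups that overlapped. The part of these markers in the p53 targets was not tested.

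Whether the effect of cKO differed between the stages was tested with the interaction of stage and genotype. For 4 of 8 members it was larger in sPre-B cells, beside 4.24% of all genes called in either direction and 2.64% called in that direction. The difference of the Log2FC was 1.99 ± 0.21 for *Cdkn1a* (adjusted *P* = 0.00384), 1.77 ± 0.37 for *Phlda3* (0.036), 1.43 ± 0.31 for *Zmat3* (0.0426) and 1.07 ± 0.17 for *Ccng1* (0.0164). The differences for *Trp53inp1* (0.93, 95% interval 0.36 to 1.49, adjusted *P* = 0.0744), *Aen* (0.21, −0.18 to 0.60), *Mdm2* (0.17, −0.19 to 0.53) and *Trp53* (−0.15, −0.50 to 0.21) did not pass the test. That of *Trp53inp1* did pass with no expression filter (adjusted *P* = 0.0165), by DESeq2 (0.00388), by the likelihood-ratio test (0.0132) and without cKO early LPre replicate 2 (0.0488).

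Of these 4 calls, that of *Cdkn1a* held without each of the 8 libraries in turn (adjusted *P* between 0.00539 and 0.0247) and without both Ctrl replicate 2 libraries (0.0418). The call of *Ccng1* was lost without Ctrl early LPre replicate 1 (0.0515), cKO early LPre replicate 1 (0.0691), cKO sPre replicate 1 (0.0536) or both Ctrl replicate 2 libraries (0.066). The call of *Zmat3* was lost in 7 of the 8 fits without a library (adjusted *P* up to 0.145, at 0.0143 without cKO sPre replicate 2), and that of *Phlda3* in 6 of 8 (up to 0.124). Without both Ctrl replicate 2 libraries their adjusted *P* was 0.234 and 0.121.

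The passage from early LPre-B to sPre-B cells changed several of the same genes in Ctrl cells. *Cdkn1a* and *Phlda3* fell, *Trp53inp1*, *Zmat3* and *Mdm2* rose, and *Trp53*, *Ccng1* and *Aen* did not pass the test. *Aen* lay near the threshold (Log2FC 0.31, adjusted *P* = 0.055), and it was called higher with median-ratio factors (0.0398), by DESeq2 (0.0343), with the replicate number in the fit (0.0377) and without Ctrl early LPre replicate 1 (0.0252) or Ctrl sPre replicate 1 (0.0499). *Ccng1* (0.19, adjusted *P* = 0.199) was called higher without Ctrl sPre replicate 2 (0.0297). The 5 of 8 called are close to the 60.2% called among all genes, with 29.1% higher and 31.1% lower. *Cdkn1a* fell 11.7-fold, from 49.4 and 44.7 CPM to 4.54 and 3.50 CPM (Log2FC −3.55 ± 0.16, adjusted *P* = 1.23e-06), and *Phlda3* fell 3.78-fold (Log2FC −1.92 ± 0.28, adjusted *P* = 0.000363). *Trp53inp1* rose 3.12-fold (Log2FC 1.64 ± 0.18, adjusted *P* = 7.3e-05) and *Zmat3* 3.04-fold (1.61 ± 0.23, adjusted *P* = 0.000318). *Mdm2* rose 1.29-fold (0.37 ± 0.11, adjusted *P* = 0.0187), a call lost without Ctrl early LPre replicate 1 (0.0574) or Ctrl sPre replicate 2 (0.0508).

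In cKO cells the same passage gave 5 members higher and 1 lower, beside 62.6% of all genes called, 31.6% higher and 31.1% lower. *Cdkn1a* was lower in sPre-B cells here too, 2.95-fold (Log2FC −1.56 ± 0.15, adjusted *P* = 3.1e-05). *Zmat3* was 8.22-fold higher (3.04 ± 0.23, adjusted *P* = 1.11e-05), *Trp53inp1* 5.94-fold (2.57 ± 0.19, adjusted *P* = 7.85e-06), *Ccng1* 2.39-fold (1.26 ± 0.12, adjusted *P* = 3.53e-05), *Mdm2* 1.45-fold (0.54 ± 0.11, adjusted *P* = 0.00291) and *Aen* 1.43-fold (0.52 ± 0.12, adjusted *P* = 0.00538). The *Aen* call was lost without cKO sPre replicate 1 (0.0604). *Phlda3*, with libraries that overlapped, had a Log2FC of −0.15 (95% interval −0.71 to 0.40, adjusted *P* = 0.605).

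The level of *Cdkn1a* in cKO sPre-B cells, 21.1 and 17.4 CPM, lay between the Ctrl sPre-B cells and both early LPre-B groups. That of *Phlda3* in cKO sPre-B cells reached the level of cKO early LPre-B cells, which was above Ctrl at either stage. *Ccng1*, *Zmat3* and *Aen* were highest in cKO sPre-B cells, with both libraries above the other 6 libraries. *Trp53inp1* and *Mdm2* had instead their highest libraries in Ctrl sPre-B cells.

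The wider list of 44 p53 genes was counted in the same comparisons. *Perp*, *Eda2r* and *Rprm* did not pass the expression filter, and 41 genes were tested. In early LPre-B cells 11 were higher (26.8%) and 11 lower (26.8%) in cKO, with a median Log2FC of −0.0037. In sPre-B cells 16 were higher (39%) and 5 lower (12.2%), with a median of 0.30. The shares of all genes called higher and lower were 14.5% and 16.9% at the first stage and 19.8% and 14.9% at the second. Without both Ctrl replicate 2 libraries 5 of the 22 calls in early LPre-B cells were lost, those of *Bax* (adjusted *P* = 0.104), *Apaf1* (0.0608), *Plk2* (0.213), *Rrm2b* (0.0548) and *Pank1* (0.172), and 3 of the 21 in sPre-B cells, those of *Sfn* (0.0871), *Polk* (0.0919) and *Fdxr* (0.0597). In at least 1 of the 8 fits without a single library, 10 of the 22 were lost (these 5, *Cop1*, *Cdkn2a*, *Trp73*, *Ei24* and *Ddb2*) and 7 of the 21 (these 3, *Ppm1d*, *Pmaip1*, *Apaf1* and *Plk2*).

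Death genes were among those with the smallest adjusted *P*. *Bbc3*, which encodes the BH3-only protein PUMA, was at 1.79 and 1.47 CPM in Ctrl and 5.96 and 5.48 in cKO early LPre-B cells, and at 5.31 and 4.82 in Ctrl and 37.5 and 31.9 in cKO sPre-B cells. The Log2FC was 1.80 ± 0.16 at the first stage (adjusted *P* = 0.000125) and 2.78 ± 0.16 at the second (adjusted *P* = 1.98e-05), and the difference of 0.98 passed the test (adjusted *P* = 0.0429). That call on the difference was lost without each of the 8 libraries in turn (adjusted *P* between 0.0595 and 0.159) and without both Ctrl replicate 2 libraries (0.149). *Pidd1*, which encodes the scaffold of the PIDDosome, rose 2.23-fold and 2.86-fold (Log2FC 1.16 and 1.52). *Bax*, whose product permeabilizes mitochondria, rose with Log2FC 0.37 and 0.82, although 22.1% of its exon bases are shared with another annotated gene. *Pmaip1*, encoding NOXA, rose in sPre-B cells (Log2FC 1.01). Of 9 apoptosis genes tested, 3 were higher and 2 lower (*Apaf1*, −0.52, and *Ei24*, −0.41) in early LPre-B cells, and 4 were higher and 1 lower (*Apaf1*, −0.55) in sPre-B cells, beside 14.5% higher and 16.9% lower, then 19.8% and 14.9%, over all genes.

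Among 9 growth and checkpoint genes tested, 2 were higher and 3 lower in early LPre-B cells, and 4 were higher and 1 lower in sPre-B cells, against the same shares over all genes. The long noncoding RNA *Trp53cor1* (lincRNA-p21), transcribed away from *Cdkn1a* upstream of it, was at 1.82 and 2.47 CPM in Ctrl and 2.80 and 4.46 in cKO early LPre-B cells, and at 1.53 and 1.66 in Ctrl and 16.7 and 11.4 in cKO sPre-B cells. Its Log2FC was 0.76 (adjusted *P* = 0.0703) at the first stage and 3.14 ± 0.30 (adjusted *P* = 0.000165) at the second, with a difference of 2.38 ± 0.40 (adjusted *P* = 0.0204). The call on the difference was lost without Ctrl early LPre replicate 2 (0.0711), cKO early LPre replicate 1 (0.0684), Ctrl sPre replicate 2 (0.0604), cKO sPre replicate 1 (0.0572) or both Ctrl replicate 2 libraries (0.147). A gene on the other strand covers 46.5% of its exon bases, so its count is uncertain. *Pvt1*, a noncoding RNA that p53 induces beside *Myc*, had Log2FC of 2.86 and 3.58, and *Ptprv*, a phosphatase gene, 1.56 and 2.25. *Btg2* (−1.22) and *Gadd45a* (−0.63), both growth arrest genes, fell in early LPre-B cells, and the kinase gene *Plk2* fell at both stages (−0.69 and −0.83). *Sfn*, which encodes 14-3-3 sigma, rose in sPre-B cells (0.51).

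Among the 5 repair genes, *Ercc5* (Log2FC 0.97 and 1.02) and *Ddb2* (0.52 and 0.83), both of nucleotide excision repair, rose at both stages. *Rrm2b*, a ribonucleotide reductase subunit, fell in early LPre-B cells (−0.70), and the translesion polymerase gene *Polk* rose in sPre-B cells (0.43). *Acp2* on the other strand covers 26.7% of the exon bases of *Ddb2*. Of 9 metabolic genes, *Sesn2* (1.15 and 1.24) and *Prkab1* (0.85 and 0.58), which act on AMPK and mTORC1 signalling, rose at both stages. *Pank1* fell in early LPre-B cells (−0.52), and in sPre-B cells *Fdxr* rose (0.39) and *Ddit4* fell (−0.89).

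Of the 9 regulators of p53, 2 were higher and 4 lower in early LPre-B cells, and 2 were higher and 2 lower in sPre-B cells, again beside those shares over all genes. *Trp53bp1*, a damage response adaptor, rose at both stages (Log2FC 0.77 and 0.59), with 22.1% of its exon bases also under *Tubgcp4*. *Cop1*, a ubiquitin ligase of p53, rose as well (0.44 and 0.66), while *Rchy1* (−0.59 and −0.67), another such ligase, and *Ppm1d* (−0.64 and −0.35), the phosphatase WIP1, fell at both. *Cdkn2a*, the locus of ARF, fell in early LPre-B cells (−2.28) from a level of 0.702 and 0.525 CPM to 0.138 and 0.115 CPM. In the interaction test, 2 of the 41 genes passed (4.88%), *Bbc3* and *Trp53cor1*, beside 4.24% of all genes.

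**Figure D3:**
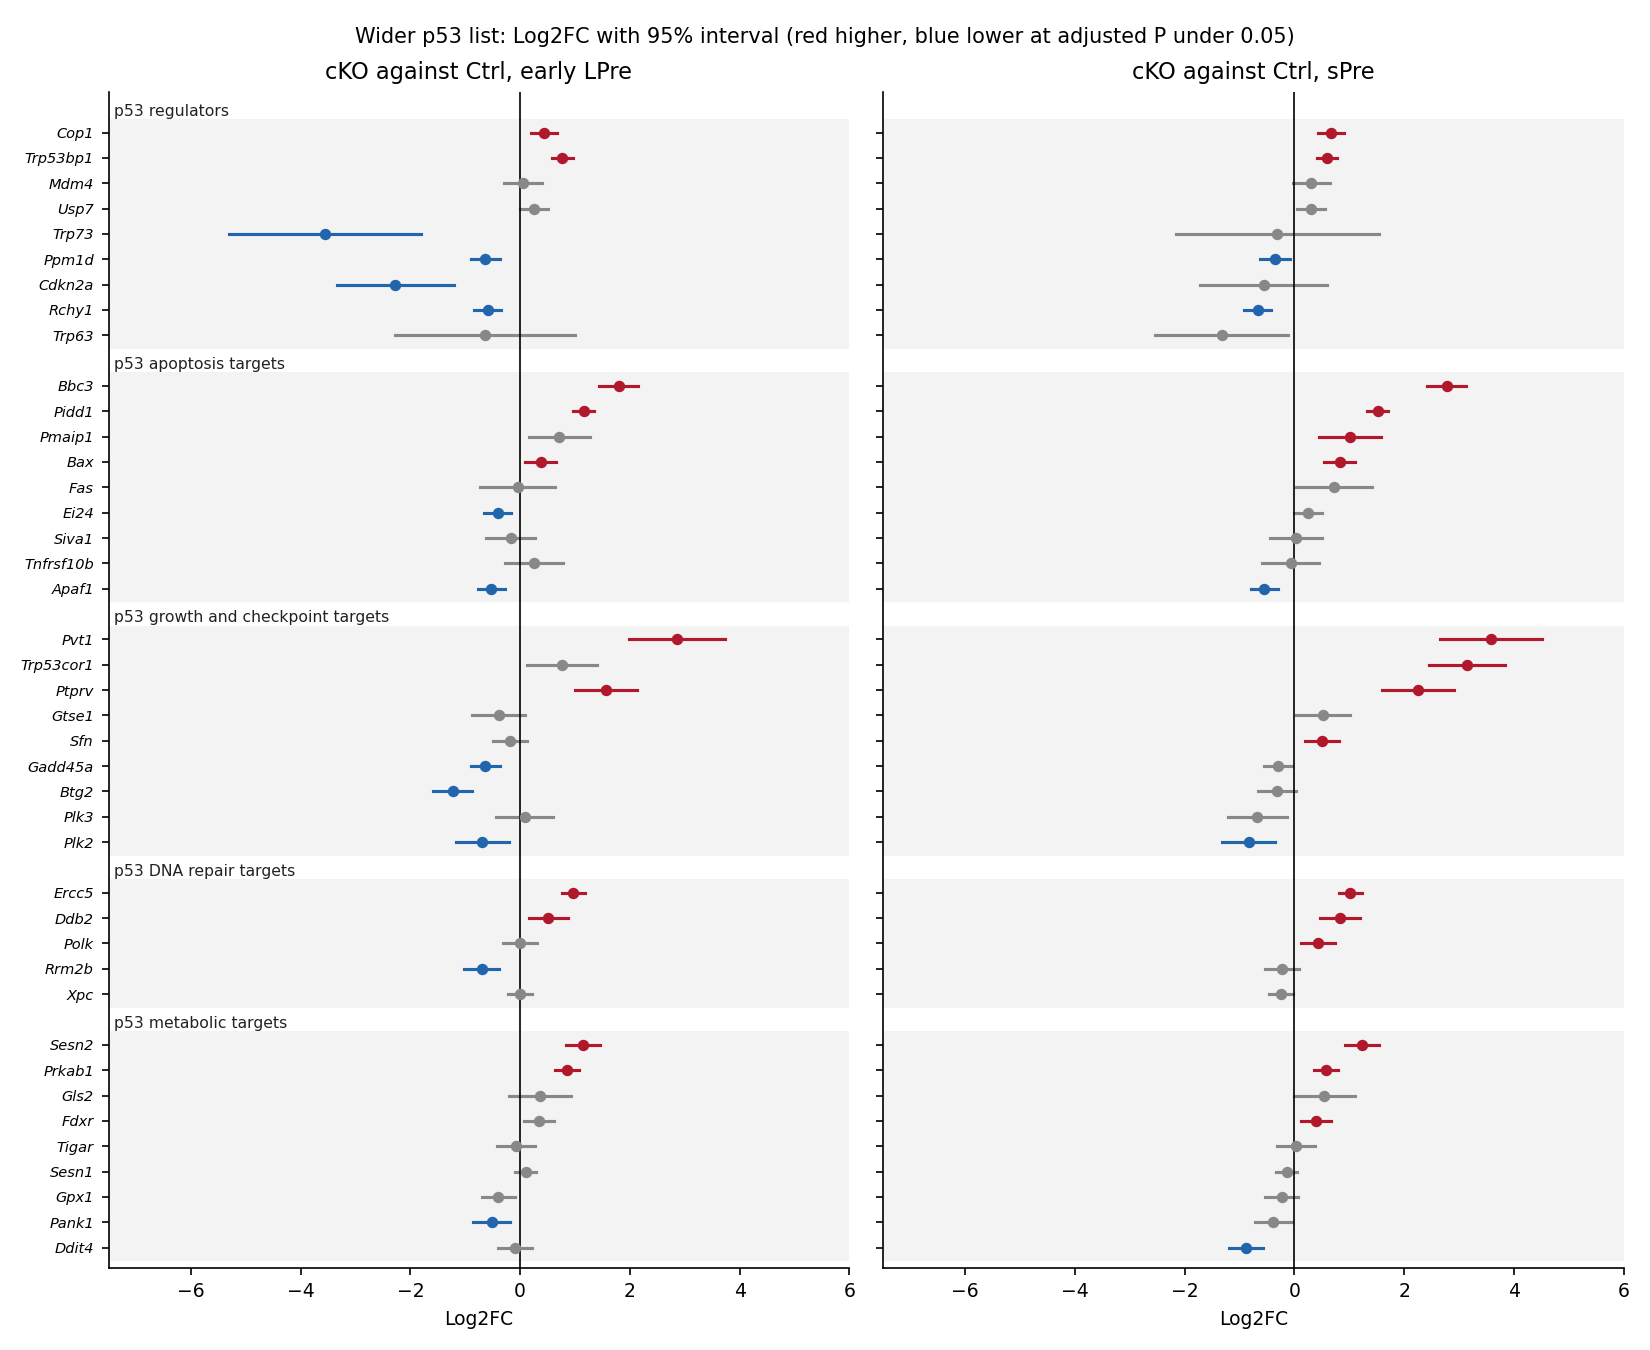
Log2FC (x axis) in cKO over Ctrl of the 41 tested genes of the wider p53 list, in early LPre-B cells (left) and sPre-B cells (right), by group and ordered by the value in sPre-B cells. Bars are 95% intervals, red is higher and blue lower at an adjusted *P* under 0.05, and grey is not called. *Bbc3*, *Pidd1*, *Pvt1* and *Ptprv* lie to the right of 0 at both stages, and *Trp73* rests on 3 and 1 counts in cKO early LPre-B cells.

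Between the stages, 17 genes of the wider list were higher and 14 lower in Ctrl sPre-B cells (41.5% and 34.1%), and 18 were higher and 9 lower in cKO (43.9% and 22%). Over all genes 29.1% were higher and 31.1% lower in Ctrl, and 31.6% and 31.1% in cKO. Without both Ctrl replicate 2 libraries 9 of the 31 calls in Ctrl and 1 of the 27 in cKO were lost, that of *Gls2* in cKO and in Ctrl those of *Ppm1d*, *Cdkn2a*, *Trp73*, *Tnfrsf10b*, *Ei24*, *Sfn*, *Pvt1*, *Polk* and *Sesn2* (adjusted *P* between 0.0658 and 0.376). In at least 1 of the 8 fits without a single library, 10 of the 31 calls in Ctrl were lost (8 of these 9, without *Tnfrsf10b*, and *Mdm4* and *Gpx1*) and 6 of the 27 in cKO (*Trp53bp1*, *Trp63*, *Plk3*, *Sesn2*, *Gls2* and *Ddit4*). In Ctrl the changes with the lowest adjusted *P* of each group, not always those with the largest Log2FC, are named here. They included *Pidd1* (Log2FC −2.76), *Siva1* (−3.22) and *Bbc3* (1.62) among the death genes, and *Btg2* (2.40), *Gtse1* (−2.89) and *Ptprv* (−3.18) among the growth genes. *Rrm2b* (1.81) and *Ercc5* (1.06) rose and *Ddb2* (−1.07) fell among the repair genes, *Sesn1* (0.96) and *Ddit4* (1.36) rose among the metabolic genes, and *Cop1* (1.34) rose among the regulators. Each of these was called with the same direction in cKO. *Trp53cor1* had a Log2FC of −0.43 in Ctrl (adjusted *P* = 0.234) and rose in cKO (1.95, adjusted *P* = 0.000366).

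The patterns of *Cdkn1a* and *Trp53inp1* over the 8 libraries were set beside those of every tested gene. Likeness was the root mean square difference of log2 CPM after each gene was centred on its own mean, given here as a description. The 5 genes nearest to *Cdkn1a* were *Dyrk3* (0.24), *Mthfd2* (0.26), *Ccdc34* (0.28), *Fancd2* (0.28) and *Iqgap3* (0.28). The nearest other member, *Phlda3*, was at 0.998 and ranked 1745. The 5 genes nearest to *Trp53inp1* were *Mxd4* (0.076), *Tmem71* (0.16), *Itgam* (0.17), *Cpm* (0.17) and *Tram2* (0.19), and its nearest member *Zmat3* was at 0.82 and ranked 2316. The difference between *Cdkn1a* and *Trp53inp1* was 2.60.

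**Figure D4:**
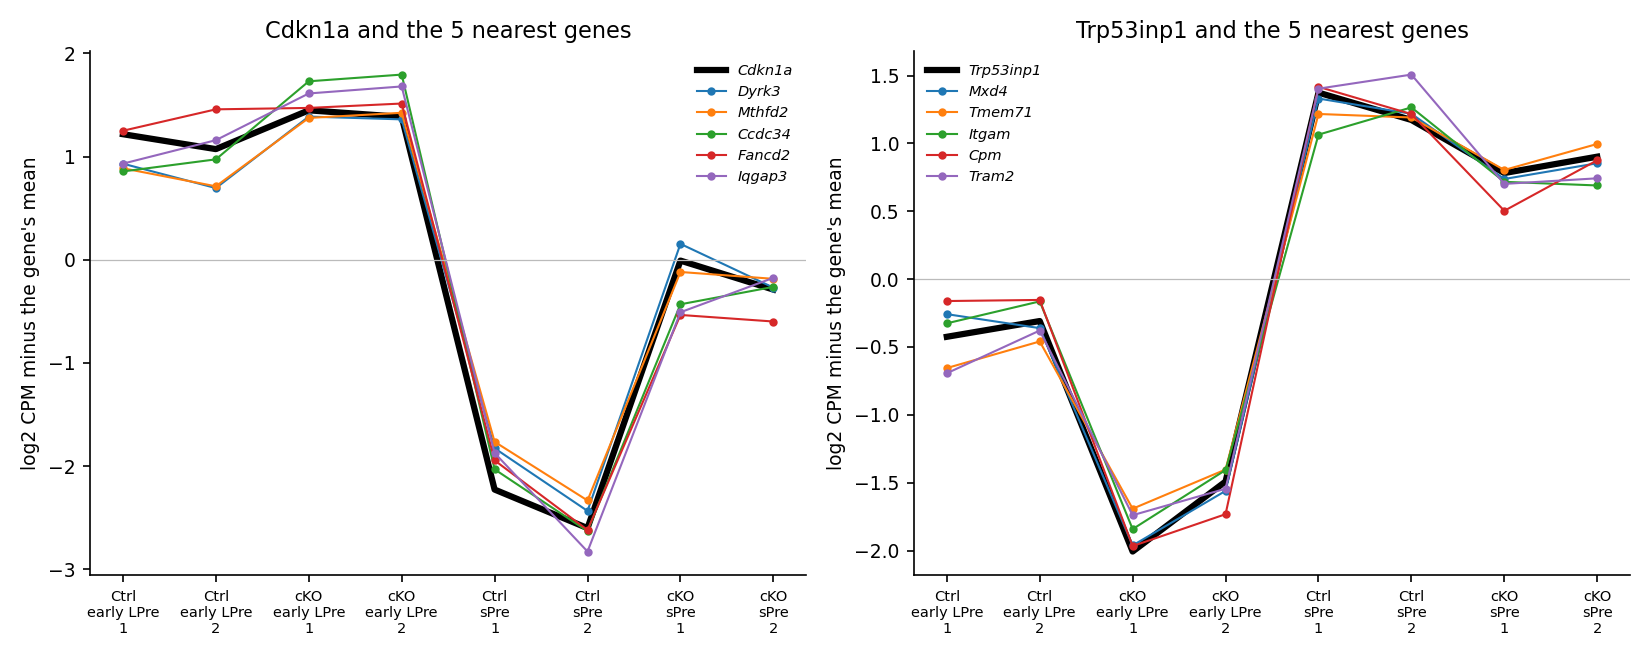
log2 CPM minus the mean of each gene (y axis) in the 8 libraries (x axis, group and replicate number), for *Cdkn1a* (left) and *Trp53inp1* (right) in black and for the 5 nearest genes in colour. Lines join libraries for reading only. *Cdkn1a* and its neighbours are lowest in Ctrl sPre-B cells, and *Trp53inp1* and its neighbours are lowest in cKO early LPre-B cells.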

How the data were processed

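The 8 RNA-seq libraries were grouped by the stage and genotype in their labels. Reads had been trimmed by the authors (Trim Galore), mapped to mm10 as unstranded pairs (HISAT2) and assigned to genes (featureCounts). Versions and the gene annotation are not given in the sources used here. The deposited values are raw counts by Entrez identifier, and 25275 of 27179 identifiers were named from RefSeq. The library kit marks strand and the alignment is described as unstranded. The strand setting of the counting is not given in the sources used here, so counts of overlapping genes on opposite strands are uncertain.

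The software was edgeR 4.0.16 under R 4.3.3. Normalization by TMM gave factors of 0.862 to 1.09. One mean per group was fitted to the 17700 genes left by the expression filter, over all 8 libraries (4 residual degrees of freedom, common biological coefficient of variation 0.174). For every comparison, and for the stage-by-genotype interaction, edgeR's quasi-likelihood test (two-sided) was used, *P* values were adjusted over all genes tested by the method of Benjamini and Hochberg, and genes were called at an adjusted *P* under 0.05. Intervals cover 95%. The script was tested on simulated data. Levels are CPM after TMM scaling, and RPKM used the union of annotated exons in GENCODE M21. Replicates of every group differed by more than counting noise. Alternatives were median-ratio size factors, no filter, DESeq2 1.42.0, the likelihood-ratio test, a replicate block, only the 4 libraries compared, leaving out each library, and leaving out both Ctrl replicate 2 libraries.

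The 8 genes and the lists were chosen with earlier results of these data known. Named from the wider list were *Trp53cor1* and up to 4 called genes with the lowest adjusted *P* per group and comparison, of which those of the stage comparisons are given in part. *Bax*, *Cop1* and *Plk2* in early LPre-B cells, *Pmaip1* and *Sfn* in sPre-B cells and genes whose calls were lost are named besides, after their values were seen. *Gtse1* is named in cKO over Ctrl for its match to the p53 response element.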

Additional observations from a re-analysis of the deposited data

Results flagged for a closer look

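The effect of cKO differed between sPre-B and early LPre-B cells, by the interaction of stage and genotype in the edgeR fit, for 4 of the 8 members and 2 of the 41 tested genes of the wider list (4.88%), beside 4.24% of all genes called. The difference (sPre-B minus early LPre-B, log2) was 1.99 for *Cdkn1a*, 1.07 for *Ccng1*, 1.43 for *Zmat3* and 1.77 for *Phlda3*. It was 0.98 for *Bbc3* and 2.38 for *Trp53cor1*. Of the 8 fits without a single library, the call was lost in none for *Cdkn1a*, 3 for *Ccng1*, 4 for *Trp53cor1*, 6 for *Phlda3*, 7 for *Zmat3* and 8 for *Bbc3*, and without both Ctrl replicate 2 libraries it was kept for *Cdkn1a* only. The groups hold 2 libraries each, so no library could be tested for standing apart within its group.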

How the results depend on the processing

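Over the 4 comparisons the 8 members gave 32 results, of which 30 with DESeq2, 31 with median-ratio factors, 32 with no filter, 32 with the likelihood-ratio test and 29 with only the 4 libraries compared kept their direction and their side of the threshold. Without both Ctrl replicate 2 libraries 29 of 32 did so. The labels do not say that a replicate number pairs libraries. Deviations of same-numbered libraries correlated at 0.0928 to 0.354 across genes, over 0.1 in 3 of 4 comparisons, and the same-numbered Ctrl libraries match by sex, so a pairing was not settled. With the replicate block 30 of 32 were unchanged, *Mdm2* in sPre-B cells (adjusted *P* = 0.0366) and *Aen* between stages in Ctrl (0.0377) were then called, and the wider list had 4 genes in the interaction in place of 2.

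Members called in early LPre-B cells numbered 4, with 2 to 4 when single libraries were left out and 2 without both Ctrl replicate 2 libraries. In the interaction they numbered 4, with 1 to 4 and 1, respectively, and 5 with no filter, DESeq2 or the likelihood-ratio test. The 2 genes of the wider list called in the interaction became 1 with median-ratio factors, 6 with no filter, 7 with DESeq2, 5 with the likelihood-ratio test, 0 to 2 without single libraries and 0 without both Ctrl replicate 2 libraries. Over all genes the interaction called 750, then 1575 with no filter, 1770 with DESeq2, 1508 with the likelihood-ratio test, 126 to 902 without single libraries and 92 without both Ctrl replicate 2 libraries. All genes called in cKO over Ctrl numbered 5547 (2923 to 5355) in early LPre-B and 6134 (3624 to 6637) in sPre-B cells. Fewer libraries leave fewer residual degrees of freedom, and the cause was not tested further. Changes near 0 turned sign without single libraries for *Trp53* in sPre-B cells (−0.0497 to 0.0853) and between stages in Ctrl (−0.0066 to 0.178, and −0.0646 without both Ctrl replicate 2 libraries), *Mdm2* in the interaction (−0.0240 to 0.290), *Zmat3* in early LPre-B cells (−0.235 to 0.0481) and *Phlda3* between stages in cKO (−0.371 to 0.0324). A library left out leaves a lone library in its group, which is assumed to vary like the others. With 2 libraries per group and 3 of 44 listed genes below the filter, changes smaller than the printed intervals could not be shown.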
